A study of Mus musculus with 7 samples.

Results

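The genes described here encode the proteasome: all protein-coding genes of the mouse mm10 annotation (GENCODE M21) whose symbol starts with *Psma*, *Psmb*, *Psmc*, *Psmd* or *Psme*, which gave 45 of 21938 protein-coding genes, on 16 chromosomes. They were chosen by name alone, and not all encode subunits. *Psmc3ip* encodes a factor of meiotic recombination, and *Psmd5*, *Psmd9* and *Psmd10* encode assembly chaperones. The other 41 encode subunits or activators. For each gene, peaks of chromatin immunoprecipitation followed by sequencing (ChIP-seq) were read in gastrocnemius, a calf muscle rich in fast fibers, from male wild-type C57BL/6J mice. The study's methods give an age of 3 to 5 months for its animals and name Cre-negative littermates of a floxed *Bmal1* line as its controls, whereas the sample labels say wild type only. RNA polymerase II (RNAP2) and the clock activator BMAL1 were each mapped at Zeitgeber time (ZT) 4, that is 4 hr after lights on. The clock repressor REV-ERBα was mapped at ZT 8, and each factor had 2 biological replicates. Input DNA served as background: the series holds 1 input sample, listed at ZT 4, whereas the study counts 2 muscle inputs. Knockout muscle was not analysed here, so all values describe unperturbed muscle at a single time for each factor. Between REV-ERBα and RNAP2 or BMAL1, time of day and factor cannot be told apart.

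The proteasome degrades proteins that carry ubiquitin chains. Its 20S core is a barrel of outer alpha rings, which gate the entrance, and inner beta rings, which hold the proteolytic sites, and its 19S cap binds ubiquitin, removes it and feeds unfolded substrate into the core with a ring of ATPases. In skeletal muscle this machinery breaks down contractile proteins during fasting and disuse, and its subunit genes are known to be transcribed together under the control of the NRF1 factor encoded by *Nfe2l1*.

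The 6 peak lists, all kept at a p-value of 0.05, differed widely in length, from 28881 peaks for REV-ERBα replicate 1 to 177669 for BMAL1 replicate 2. Peaks that overlapped by at least 1 bp in both replicates of a factor were merged into regions, which left 10752 for RNAP2, 1263 for REV-ERBα and 2742 for BMAL1. A region belonged to a gene when it lay within 10 kb of any of its annotated transcription start sites (TSSs), and its strength was the lower −log10 p of the 2 replicates, so that a strong region had to be strong in each of them; positions are distances to the closest TSS of that gene unless said otherwise, with negative values upstream. Muscle origin was plain in the RNAP2 lists, as all 6 fiber markers (*Acta1*, *Ckm*, *Tnnt3*, *Myh4*, *Mylpf* and *Ttn*) had an RNAP2 region of strength 10.3 to 39.9, whereas *Pecam1* and *Cdh5* of endothelium, *Ptprc* of leukocytes, *Adipoq* and *Plin1* of adipocytes, *Pdgfra* of fibroblasts, *Myh11* of smooth muscle and *Pax7* of satellite cells had none. Counts of genes are given beside the same share in other protein-coding genes where that share was computed, and no test was run across genes.

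RNAP2 occupied the proteasome genes more often than other genes. Of the 45 genes, 27 (60%) had an RNAP2 region in both replicates, beside 38.1% of the 21893 other protein-coding genes, and within 1 kb of a TSS the numbers were 25 (55.6%) beside 30.5%. In single lists the excess depended on the replicate: within 10 kb, 42 of 45 (93.3%) had an RNAP2 peak in replicate 1 beside 73% of other genes, but in replicate 2, where most genes had one, 41 (91.1%) beside 83.9%. Within 1 kb, 36 (80%) had a peak in replicate 1, beside 49% of other genes, and 33 (73.3%) had one in replicate 2, beside 47.9%. For peaks past a −log10 q of 1.3, which is a false discovery rate of about 0.05, these numbers were 28 (62.2%) beside 32.4% in replicate 1 and 17 (37.8%) beside 16.1% in replicate 2. Proteasome genes had more annotated TSSs than other genes, with a median of 5 beside 3, and slightly wider windows, with a median of 24216 bp beside 22812 bp; with only the 5′ end of each gene, 25 members (55.6%) had an RNAP2 region, beside 34.9% of other genes.

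**Figure D1:**
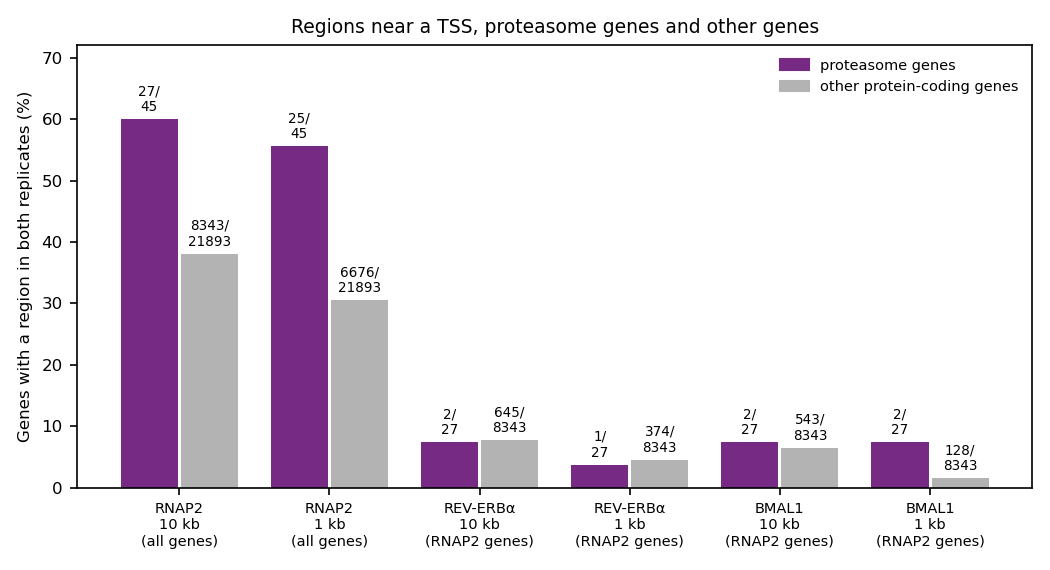
Share of genes (percent, vertical axis) with a region in both replicates within 10 kb or 1 kb of a TSS, for proteasome genes (purple) and other protein-coding genes (gray), with the numbers of genes above each bar. The RNAP2 bars stand at 60% and 55.6% for proteasome genes beside 38.1% and 30.5%, and REV-ERBα and BMAL1, shown among genes with an RNAP2 region, stand at 7.41% or below for proteasome genes.

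Where RNAP2 was present, its strength was slightly above that of other genes at the median. The median strength of the strongest region was 5.52 over the 27 genes, from 2.53 at *Psme2* to 12.9 at *Psme4*, beside 4.73 over the 8343 other genes with a region. Fold enrichment over input at these regions had a median of 5.76 in replicate 1 and 3.99 in replicate 2, beside 5.01 and 3.58 in the other genes. The replicates ranked the members differently: Spearman's rho between the −log10 p of replicates 1 and 2 was 0.238 over the 27 members and 0.684 over the other genes, and replicate 1 was the higher at 21 of the 27 (77.8%), beside 81.1% of the other genes. The order of single members by RNAP2 is therefore loose, and both replicates are given for each gene that is named.

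**Figure D2:**
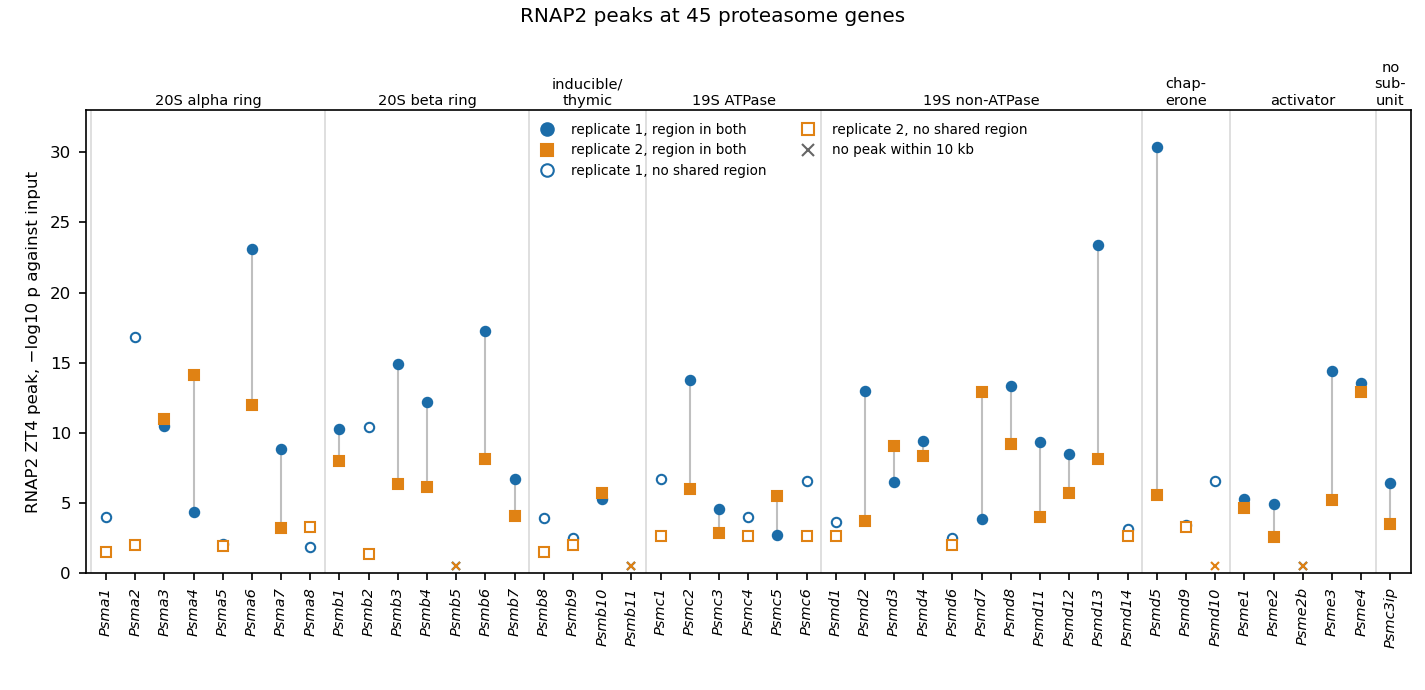
RNAP2 −log10 p against input (vertical axis) at each of the 45 genes, grouped by role, for replicate 1 (circles) and replicate 2 (squares). Filled marks joined by a line are the strongest region shared by both replicates, open marks the strongest unshared peak within 10 kb, and crosses no peak; the longest gap between replicates is at *Psmd5*, with 30.4 and 5.52.

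Among the 8 genes of the 20S alpha ring, 4 had an RNAP2 region, and 2 of these were among the strongest of the family. At *Psma6* the peaks reached a −log10 p of 23.1 and 12.0 in replicates 1 and 2, and at *Psma3*, whose product is a subunit of the same ring, 10.5 and 11.0. *Psma4* held the highest RNAP2 peak of any member in replicate 2, with 14.1, but only 4.30 in replicate 1. *Psma7* was lower, with 8.86 and 3.18. The replicates thus stood within 0.5 of each other at *Psma3* and far apart at *Psma4*. *Psma1*, *Psma2*, *Psma5* and *Psma8*, the last known as the alpha subunit of testis, had peaks in both lists that did not overlap. *Psma2* stood apart among them: replicate 1 had a strong peak of 16.8 with its summit at −232 bp, and replicate 2 only 1.99 at 6088 bp. The replicate 1 summit was nearer to a TSS of *Mrpl32*, on the opposite strand.

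The beta ring carries the catalytic sites, in the products of *Psmb5*, *Psmb6* and *Psmb7*, and 5 of its 7 genes had an RNAP2 region. *Psmb6*, which encodes the caspase-like site, reached 17.2 and 8.12, *Psmb3* 14.9 and 6.31, *Psmb4* 12.2 and 6.11, and *Psmb7*, which encodes the trypsin-like site, 6.67 and 4.02. *Psmb1* had 2 regions at neighboring annotated TSSs, the stronger with 10.3 and 7.95. In all 5 genes replicate 1 was the higher. *Psmb2* had a strong peak in replicate 1 only, with 10.4 at −124 bp. *Psmb5*, which encodes the chymotrypsin-like site, had no RNAP2 peak within 10 kb in either list; the nearest lay 11799 bp away in replicate 1 and 14455 bp away in replicate 2. Its window overlaps that of *Psmb11*, whose closest TSS lies 3411 bp away on the opposite strand and which lacked RNAP2 peaks in both lists too.

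Of the 4 genes for alternative catalytic subunits, only *Psmb10* had an RNAP2 region, with 5.27 and 5.70. *Psmb8*, *Psmb9* and *Psmb10* encode the subunits of the immunoproteasome, which interferon induces, and *Psmb11* that of the thymus. *Psmb8* and *Psmb9* had peaks of 3.91 and 2.45 within 1 kb in replicate 1 and none so near in replicate 2.

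The ATPase ring of the 19S cap unfolds substrates, and 3 of its 6 genes had an RNAP2 region, of strength 2.70 to 6.00. *Psmc5* had 2.70 and 5.51, *Psmc3* 4.55 and 2.87, and *Psmc2* 13.8 and 6.00. By GENCODE the *Psmc2* region (chr5:21786294-21787044) lay in the gene, 1329 and 1383 bp downstream of its nearest TSS. RefSeq places a promoter there: position 21786545, at −202 bp from the RefSeq start, fell inside the region. *Psmc1* and *Psmc6* had peaks within 1 kb in both lists that did not overlap, with 6.67 and 1.94 at *Psmc1* and 6.54 and 2.60 at *Psmc6*. *Psmc4* had no peak within 1 kb in replicate 1, and one of 2.60 in replicate 2.

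Among the non-ATPase subunits of the cap, 8 of 11 genes had an RNAP2 region, of strength 3.69 to 9.19. *Psmd8* reached 13.3 and 9.19, and *Psmd4*, which encodes a receptor for ubiquitin chains, 9.43 and 8.33. *Psmd2*, whose product is a scaffold of the cap, reached 13.0 and 3.69, *Psmd11* 9.34 and 3.97, *Psmd12* 8.47 and 5.71, *Psmd3* 6.45 and 9.02, and *Psmd7* 3.86 and 12.9. The strongest region counted for *Psmd13*, with 23.4 and 8.12, lay at the TSS of *Cox8b*, 70 and 102 bp inside that gene. *Cox8b* encodes a muscle subunit of cytochrome c oxidase. A weaker region, with 5.24 and 2.45, lay where *Psmd13* and *Sirt3* start on opposite strands. Its summits were at −64 and −177 bp from a *Psmd13* TSS but nearer to *Sirt3*, at −41 and 36 bp. *Psmd14*, which encodes the deubiquitinase of the cap, and *Psmd6* had no RNAP2 peak within 1 kb in either list, and *Psmd1* had peaks of 3.65 and 2.60 near its TSSs that did not overlap.

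Of the 3 chaperones that assemble the cap, *Psmd5* had an RNAP2 region, whose peak in replicate 1 was the highest of any member at 30.4, against 5.52 in replicate 2. *Psmd9* and *Psmd10* had none. *Psmd10* had a peak of 6.55 in replicate 1 alone, with its summit nearer to a TSS of *Atg4a* on the opposite strand. Among the 5 activators, which open the core without ATP or ubiquitin, *Psme4* had the highest strength of the family, with 13.5 and 12.9, and *Psme3* had 14.4 and 5.16. The window of *Psme1* held a region at its own TSS, with 4.88 and 2.53, and a stronger one, with 5.27 and 4.61, at the promoter of *Fitm1*, a gene of lipid droplet formation. *Psme2*, which lies on the opposite strand of the same locus, was counted only through the region at the TSS of *Psme1*. In replicate 1 alone, a peak of 5.07 lay at −232 bp from the *Psme2* TSS. Another of 7.15, also in replicate 1 alone, lay at −644 bp, nearer to a TSS of *Rnf31*. *Psme2b* had no RNAP2 peak within 10 kb; it has a single annotated TSS and resembles *Psme2* by name, and reads that matched several places had been removed, so the absence of a peak there is uncertain. *Psmc3ip*, which is no subunit, had 6.42 and 3.48.

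Of the 18 genes without a region, 10 had an RNAP2 peak within 1 kb in replicate 1 and 7 in replicate 2, with 4 of them in both. In replicate 1, 5 of these peaks passed a −log10 q of 1.3 (*Psma2*, *Psmb2*, *Psmc1*, *Psmc6* and *Psmd10*), and 0 did in replicate 2. The summits at *Psma2* and *Psmd10* were nearer to a TSS of the neighbors *Mrpl32* and *Atg4a*. Only *Psmb5*, *Psmb11* and *Psme2b* had no RNAP2 peak in either list within 10 kb. The same shares among other genes without a region were not computed.

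RNAP2 summits sat closely at the TSSs. In each replicate, 23 of the 27 strongest regions (85.2%) had their summit within 250 bp of an annotated TSS of the gene, beside 62.3% and 61.8% of other genes in replicates 1 and 2, and the median distance was 36 and 49 bp beside 121 and 122 bp. Any annotated TSS could be the nearest, and proteasome genes have more of them (median 5 beside 3), which favors short distances. The 4 exceptions were *Psmc2*, *Psmd13*, *Psme1* and *Psme2*, with the *Psmc2* region at a RefSeq promoter as given above. At *Psma6* the region lay at an internal TSS, 14470 bp downstream of the 5′ end of the gene, and no region was found at that 5′ end. The strongest regions of *Psmb1*, *Psmb10* and *Psmd5* also lay at internal TSSs, in replicate 1 at 1492, 1208 and 3868 bp from the 5′ end.

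**Figure D3:**
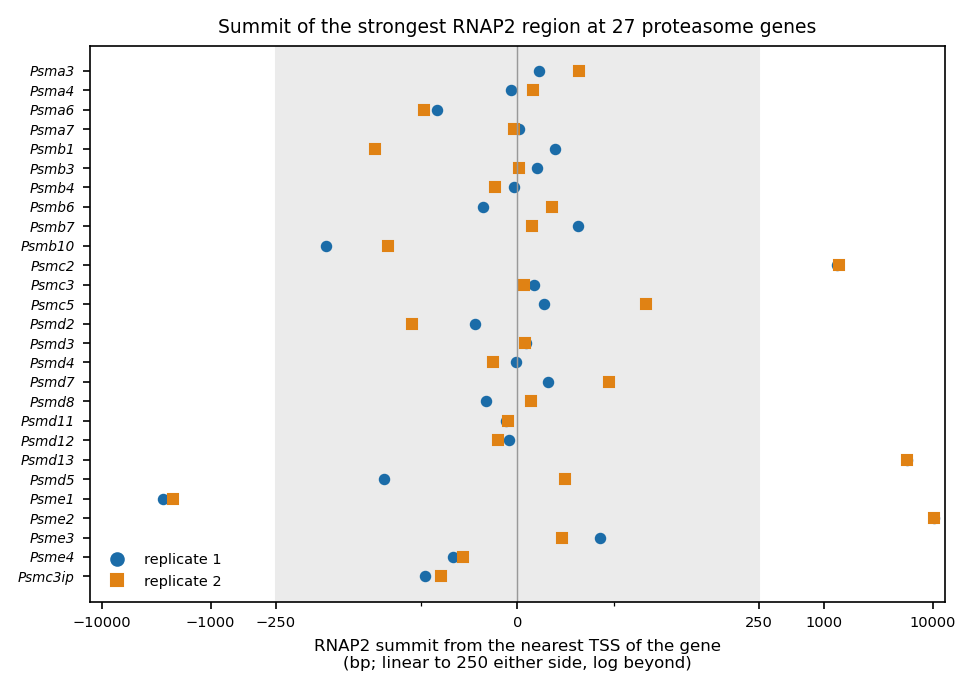
Distance in bp of the RNAP2 summit from the nearest GENCODE TSS (horizontal axis, negative upstream, linear to 250 bp and logarithmic beyond) at the 27 genes with a region, for replicate 1 (circles) and replicate 2 (squares). Gray shading spans 250 bp to either side, which holds 23 of 27 summits in each replicate; *Psmc2*, *Psmd13*, *Psme1* and *Psme2* lie outside.

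To show DNA beside the strongest RNAP2 signals of the family, 100 bases are printed for each of 6 genes. These had the highest strength at their own TSS: *Psme4*, *Psma6*, *Psma3*, *Psmd8*, *Psmd4* and *Psmb6*. Each stretch lies upstream of the most upstream annotated TSS within 250 bp of the replicate 1 summit. It was read from the reference genome (GRCm38.p6, the mm10 build) on the strand of the gene. The *Psmd8* stretch lies almost wholly outside its RNAP2 region (chr7:29180184-29180708). In both replicates the summits of *Psma3*, *Psmd8* and *Psmd4* lay outside the stretch, as did the replicate 2 summit of *Psmb6*. No stretch overlaps an annotated exon. Capitals mark matches on either strand to TGANNNNGC, the core of the element read by NRF1 and NRF2, or to CCAAT, the box read by NF-Y; the stretches of *Psme4*, *Psma3* and *Psmd8* hold no match to either.
Psme4 (chr11:30771626-30771725, plus strand): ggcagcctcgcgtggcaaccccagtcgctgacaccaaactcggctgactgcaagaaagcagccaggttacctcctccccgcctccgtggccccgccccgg
Psma6 (chr12:55398675-55398774, plus strand): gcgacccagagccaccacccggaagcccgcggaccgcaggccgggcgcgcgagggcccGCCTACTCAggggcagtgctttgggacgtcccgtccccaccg
Psma3 (chr12:70974521-70974620, plus strand): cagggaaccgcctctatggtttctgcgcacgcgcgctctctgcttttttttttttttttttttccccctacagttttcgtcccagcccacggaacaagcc
Psmd8 (chr7:29180702-29180801, minus strand): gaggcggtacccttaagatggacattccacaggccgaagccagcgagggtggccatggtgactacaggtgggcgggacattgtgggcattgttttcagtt
Psmd4 (chr3:95042615-95042714, minus strand): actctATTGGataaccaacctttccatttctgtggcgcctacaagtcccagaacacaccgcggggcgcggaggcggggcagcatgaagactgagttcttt
Psmb6 (chr11:70525267-70525366, plus strand): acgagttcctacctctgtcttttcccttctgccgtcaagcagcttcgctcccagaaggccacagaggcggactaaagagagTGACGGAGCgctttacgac

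Many proteasome genes had a TSS of a neighboring gene on the opposite strand close by. Every annotated TSS was counted, internal ones included. A TSS of another protein-coding gene on the opposite strand lay within 1 kb at 12 of the 45 (26.7%), beside 11.9% of other genes. Of these 12, 8 (66.7%) had an RNAP2 region within 10 kb, beside 65.5% of the other genes with such a neighbor. At *Psmc2* and *Psme2* that region lay more than 1 kb from any GENCODE TSS of the gene. The tightest pairs were *Psmb9* with *Tap1* (30 bp between TSSs), *Psmc2* with *Dnajc2* (32 bp), *Psma2* with *Mrpl32* and *Psmc5* with *Ftsj3* (75 bp each), *Psma7* with *Ss18l1* (76 bp) and *Psmd13* with *Sirt3* (99 bp). The direction of transcription is not recorded by ChIP-seq of RNAP2, so where RNAP2 lay at such a pair of TSSs, its signal cannot be told apart between the 2 genes.

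REV-ERBα was no more frequent at the proteasome genes than elsewhere. Among genes with an RNAP2 region, 2 of 27 proteasome genes (7.41%) had a REV-ERBα region in both replicates, beside 7.73% of 8343 other genes, and among all genes the numbers were 2 of 45 (4.44%) beside 3.69%. Within 1 kb there was 1 (3.70%), beside 4.48%. In the single lists, 10 of the 27 (37.0%) had a peak within 10 kb in replicate 1 beside 39.8%, and 8 (29.6%) in replicate 2 beside 42.6%. The 2 genes were *Psma7* and *Psme1*, and they differed greatly in strength.

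**Figure D4:**
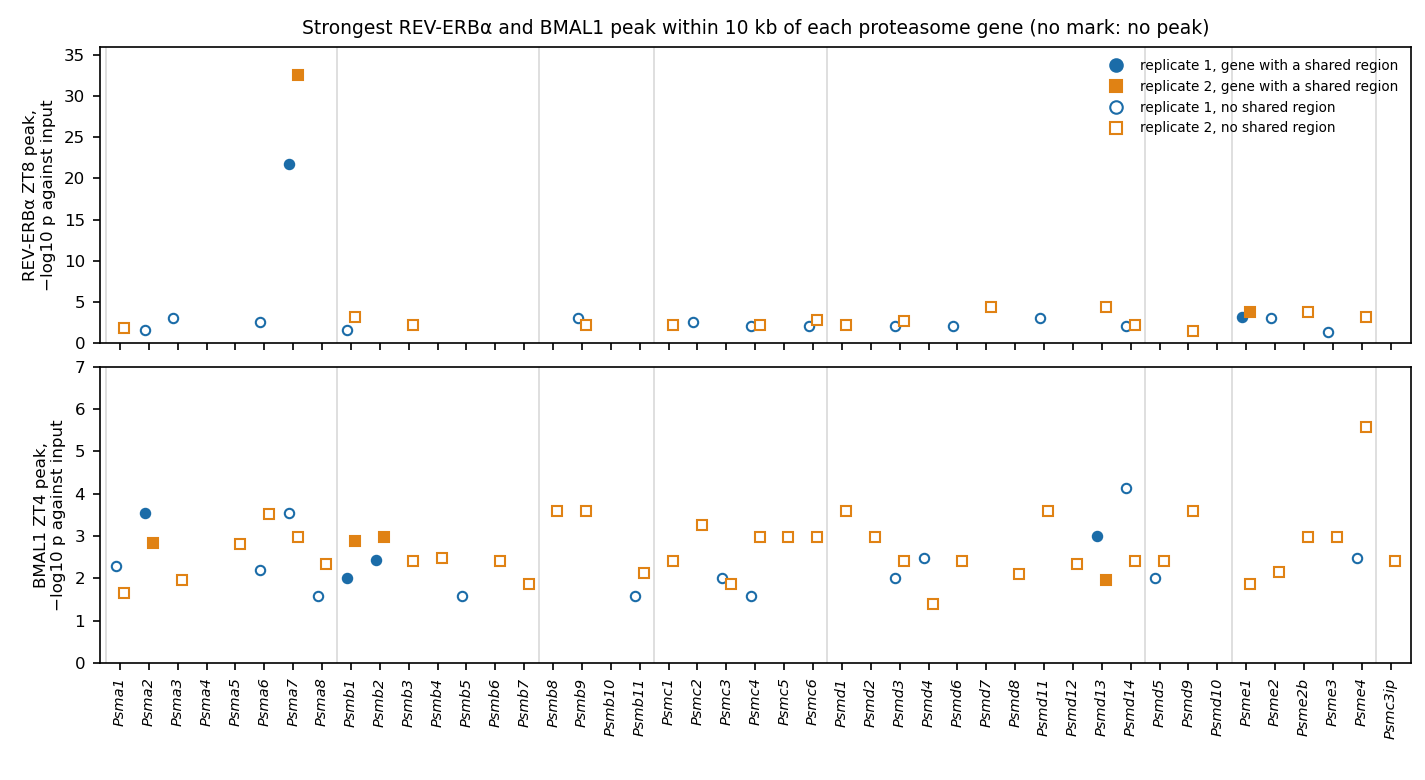
−log10 p against input (vertical axes) of the strongest REV-ERBα peak at ZT 8 (top) and BMAL1 peak at ZT 4 (bottom) within 10 kb of each gene, for replicate 1 (circles) and replicate 2 (squares), filled where the gene has a region shared by both replicates. *Psma7* stands at 21.8 and 32.6 for REV-ERBα while all other REV-ERBα values are 4.35 or lower, and the BMAL1 values reach 5.58 at most.

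At *Psma7* (ENSMUSG00000027566, chr2:180036374-180042433, minus strand) the REV-ERBα region spanned chr2:180042236-180042944. Its −log10 p was 21.8 in replicate 1 and 32.6 in replicate 2, with 7.10-fold and 9.80-fold enrichment over input and a −log10 q of 16.6 and 27.1. It was the only proteasome gene whose REV-ERBα peaks passed a −log10 q of 1.3, and thus 1 of 27 had such a region in both replicates, beside 2.91% of other genes. Of the 645 other genes with a REV-ERBα region, 74 (11.5%) had one at least as strong, so the *Psma7* region belonged to the upper part of the REV-ERBα regions near genes. Across the genome, 60 of the 1263 REV-ERBα regions were as strong.

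The region covers a promoter that points both ways. The outermost TSS of *Psma7* and that of *Ss18l1*, which encodes a subunit of neuronal chromatin remodeling complexes, are separated by 75 bases that are 84% G or C. The REV-ERBα summits lay 35 bp apart, at −99 and −134 bp from the nearest *Psma7* TSS and 23 and 58 bp into the 5′ untranslated exon of *Ss18l1*, so the nearest TSS was that of *Ss18l1* in each replicate. RNAP2 had 8.86 and 3.18 on the *Psma7* side, with summits at 2 and −3 bp from its TSS. BMAL1 replicate 2 had a weak peak of 1.40 that touched the same site, at 162 bp downstream of a *Psma7* TSS, whereas BMAL1 replicate 1 had none there. With peaks in 3 of the 4 BMAL1 and REV-ERBα lists, *Psma7* was the 1 proteasome gene of 27 (3.70%) with such a shared site, beside 2.6% of other genes. Whether the site acts on *Psma7*, on *Ss18l1*, on both or on neither was not tested.

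The 75 bases between the TSSs are printed on the strand of *Psma7*, followed by 30 bases around AGGTCA, the core of REV-ERB response elements, in capitals and on the strand that spells it. They are shown for the promoter with the strong REV-ERBα peak (*Psma7*) and for promoters with the same core but without a REV-ERBα peak at it: *Psmc4*, which the study names, *Psma3*, among the strongest for RNAP2, and *Psmc2*. All were read from GRCm38.p6.
Psma7 between the TSSs (chr2:180042434-180042508, minus strand): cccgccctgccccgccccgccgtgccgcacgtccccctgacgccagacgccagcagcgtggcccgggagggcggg
Psma7 core (chr2:180042591-180042620, minus strand): cgactgcctcccAGGTCAggataccgcgcg
Psmc4 core (chr7:28050122-28050151, minus strand): atccggcccgtcAGGTCAacccgcagcggt
Psma3 core (chr12:70974458-70974487, minus strand): ttggaagagctaAGGTCAgagcctagttcc
Psmc2 core (chr5:21786533-21786562, plus strand): aatcacgattttAGGTCAtcaactgagcta

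The AGGTCA at *Psma7* lay 71 and 36 bp from the REV-ERBα summits of replicates 1 and 2, on the *Ss18l1* side. REV-ERB response elements usually carry an A and T-rich stretch just before the core, and of the 6 bases before it 1 was A or T at *Psma7*, as at *Psmc4*, against 3 at *Psma3* and 5 at *Psmc2*. RefSeq promoters (GRCm38.p6, 250 bases before to 50 after a start) were at hand for 38 of the 45 genes, and AGGTCA occurred on either strand in 10 of them (26.3%), beside 16.4% of 16484 other genes: *Psma3*, *Psma6*, *Psma7*, *Psmb10*, *Psmc2*, *Psmc3ip*, *Psmc4*, *Psmc5*, *Psmd2* and *Psmd6*. These promoters held 12 sites, and the *Psma7* site was the only 1 inside a REV-ERBα peak of any strength. A match is a description of letters and does not show binding.

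**Figure D5:**
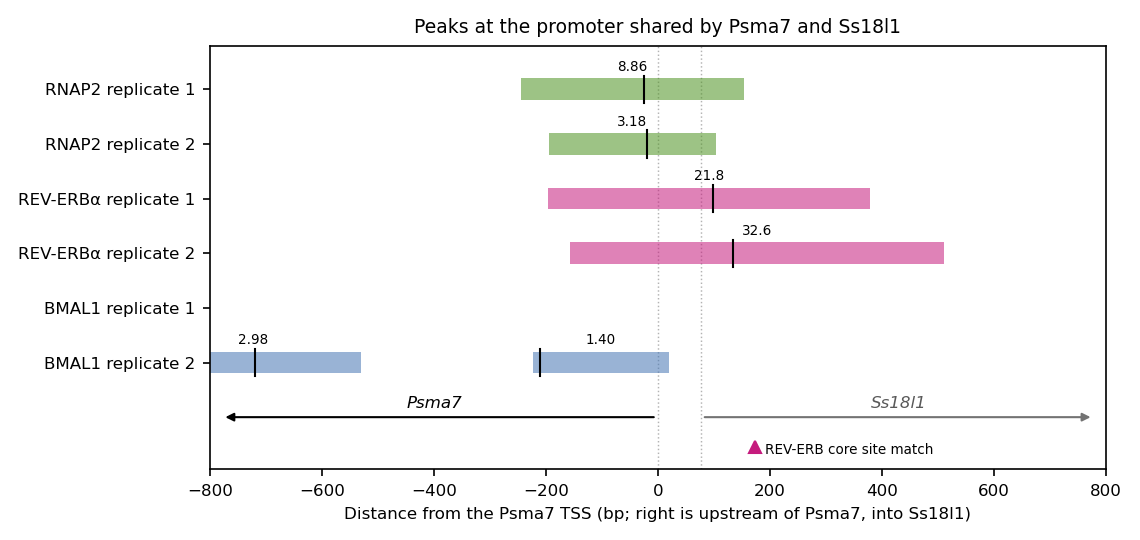
Peaks of the 6 lists (bars, with the summit as a black line and the −log10 p above) around the *Psma7* TSS, by distance in bp (horizontal axis, positive values upstream of *Psma7* and into *Ss18l1*). Dotted lines mark both TSSs, arrows the direction of the genes and the triangle the AGGTCA core; RNAP2 summits lie on the *Psma7* side, and the REV-ERBα summits, with 21.8 and 32.6, on the *Ss18l1* side.

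The other REV-ERBα region, within the window of *Psme1*, was weak and closer to another gene. Replicates 1 and 2 gave a −log10 p of 3.17 and 3.76, with a −log10 q of 0, and 402 of the 645 other genes (62.3%) had a region as strong. Its summits lay at −2459 and −2557 bp from the 5′ end of *Psme1*, but at 47 and −51 bp from the TSS of *Fitm1*. Another 6 genes (*Psmb1*, *Psmb9*, *Psmc4*, *Psmc6*, *Psmd3* and *Psmd14*) had REV-ERBα peaks in both lists that did not overlap, and 20 of the 45 had no REV-ERBα peak in either list. These shares were not computed for other genes, so the counts do not set the members apart.

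BMAL1 regions at proteasome genes were few and all weak. Of the 27 genes with RNAP2, 2 (7.41%) had a BMAL1 region in both replicates, beside 6.51% of other genes, and among all genes the numbers were 4 of 45 (8.89%) beside 4.22%. Within 1 kb the same count of 2 of 27 (7.41%) stood beside 1.53%, but both regions lay next to internal annotated TSSs and not at the promoters where RNAP2 was found. In replicate 1, 9 of 27 (33.3%) had a BMAL1 peak within 10 kb, beside 38.6%; in replicate 2 almost every gene had one, 24 (88.9%) beside 90.4%, so that a peak of that list alone set hardly any gene apart. None of the 27 had a BMAL1 region past a −log10 q of 1.3 in both replicates, beside 0.264% of other genes, and no member had such a peak in either list.

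The 4 genes were *Psma2*, *Psmb1*, *Psmb2* and *Psmd13*, with strengths of 2.40, 2.00, 2.44 and 1.97, beside a median of 2.01 for other genes with a BMAL1 region. At *Psmb1* the region (chr17:15478513-15479136, 2.00 and 2.40) lay 21158 and 20934 bp downstream of the 5′ end of the gene, next to an internal TSS. At *Psmd13* it was intronic, 6395 and 6184 bp from the 5′ end, at *Psma2* (3.54 and 2.40) it lay 12678 and 12458 bp from it, and *Psmb2* had 2 intronic regions, the stronger with 2.44 and 2.94. None of these genes thus had a BMAL1 region at its 5′ end, and neither *Psma2* nor *Psmb2* had an RNAP2 region. The highest single BMAL1 peaks were 5.58 at −756 bp from a *Psme4* TSS in replicate 2, where replicate 1 had no overlapping peak, and 4.12 in the *Psmd14* gene, 1534 bp downstream of a TSS, in replicate 1 only.

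The study names *Psmb3*, *Psmb6*, *Psmc4* and *Psmd14* for increased expression in tibialis anterior muscle that lacks BMAL1. That is a statement on expression, which was not analysed here. In wild-type gastrocnemius, none of these 4 had a REV-ERBα or BMAL1 region in both replicates. *Psmb3* and *Psmb6* had clear RNAP2 at the TSS, and *Psmc4* and *Psmd14* no RNAP2 region. At *Psmb3* the only REV-ERBα peak was 2.15 in replicate 2, at 3594 bp downstream of a TSS, and *Psmb6* had no REV-ERBα peak within 10 kb in either list. At *Psmc4* the REV-ERBα peaks of the replicates lay 3493 and 6783 bp downstream of a TSS, and at *Psmd14* they lay at −2449 and −7344 bp, so in neither gene did the replicates mark the same place.

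Promoter sequences were also read for sites of other factors that could bear on these genes. Among the 38 promoters, the NRF1 and NRF2 core TGANNNNGC occurred in 22 (57.9%), beside 45.5% of other genes, the E-box CACGTG read by BMAL1 in 4 (10.5%), beside 9.17%, CCAAT in 15 (39.5%), beside 42.1%, and the FOXO site GTAAACA in 0, beside 3.5%. The E-box was found at *Psma4*, *Psmb10*, *Psmd9* and *Psme3*, none of which had a BMAL1 region in both replicates. TGACCT, which is AGGTCA on the opposite strand, can begin a match to TGANNNNGC, so these 2 counts may share letters, and a promoter without a match lacks these letters only in this window.

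Other genes of the pathway were occupied by RNAP2 more often still. Of 23 genes for assembly factors, ubiquitin receptors and shuttles, regulators and the VCP segregase, 20 had an RNAP2 region. The share over the 21893 protein-coding genes that are no members was 38.1%. The median strength was 7.50 and the lowest, 3.05, was at *Sem1*. The regulators of proteasome genes stood high in this list: *Ngly1* at 21.7, *Nfe2l2* at 19.6, *Ddi2* at 12.5 and *Nfe2l1* at 10.8. Only *Nfe2l2*, which encodes NRF2, had a REV-ERBα region, with 2.68 and 4.96 at 954 and 781 bp downstream of a TSS. Only *Uchl5*, a deubiquitinase of the cap, had BMAL1 regions, of strength 1.83. Each was thus 1 of the 20 genes with RNAP2, beside 7.73% for REV-ERBα and 6.51% for BMAL1 in the 8343 genes with RNAP2 that are no members. *Psmg2*, *Psmf1* and *Usp14* had no RNAP2 region.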

How the data were processed

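ChIP-seq peak lists of 6 samples were used, 2 replicates each of RNAP2 at ZT 4, BMAL1 at ZT 4 and REV-ERBα at ZT 8; no list of the input sample was analysed here. The authors mapped reads to mm10 with BWA 7.12, discarded duplicates and reads with several matches, brought the replicates to a like number of reads, and called peaks sample by sample against input with Macs2 2.1.1 at a p-value of 0.05. For each peak the authors deposited its −log10 p, its −log10 q and a ratio (fold enrichment over the local input), all as Macs2 computed them at the summit. The deposited score is 10 times the −log10 p cut to a whole number by the authors and was not used. Read depth per peak is not in these lists, so no counting interval was given, and p-values of a list depend on its depth and on the input.

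Genes were the protein-coding genes of GENCODE M21 outside the mitochondrial genome. A region was the merged span of peaks from both replicates that shared 1 bp or more, and was assigned within 10 kb of any TSS; place and distance were taken from the nearest TSS. Genes were named if they had a REV-ERBα or BMAL1 region in both replicates or a peak of −log10 q of at least 1.3 in one of these lists, were among the 6 strongest for RNAP2 (*Psmb6* and *Psmd13* tied at the last place) or without an RNAP2 region, held the strongest peak of a list, or were named by the study (*Psmb3*, *Psmb6*, *Psmc4* and *Psmd14*); further members are named to account for each role. A marker of another cell type and a gene of the pathway list are not reported here. The members, gene lists and motifs were chosen with earlier results of these data known. No test was run: the lists hold peak calls without read counts, and no group of samples was compared with another. The code was tested on simulated peaks placed at known genes. Scripts ran in Python 3.11.15 with SciPy 1.17.1, pysam 0.24.0, samtools 1.23.1 and Matplotlib 3.10.9. Alternatives were the distance, the peak threshold, the overlap, lists of equal length, the choice of TSSs, of the owner of a region, of members and of comparison genes, and leaving out each list.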

Additional observations from a re-analysis of the deposited data

How the results depend on the processing

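No paired analysis was possible because counts of genes over overlapping peak lists come from no fit across samples. In 61 of 78 alternatives a count stayed within 1.5 times its value, or a share within the 95% binomial interval of the members' share. These intervals were wide, from −6.82 to 16.6 percentage points for the REV-ERBα difference and −5.6 to 17.8 for BMAL1. Alternatives that left 0 members with a region still lay within them. The RNAP2 count of 27 became 16 with a −log10 q of at least 1.3, and 41 to 42 with a single list. The RNAP2 excess over other genes was 21.9 percentage points and stayed between 7.20 and 25.8 in every alternative, lowest with replicate 2 alone. The REV-ERBα count of 2 became 1 within 1 kb, 1 with the q threshold, 0 when a region counted only for the gene with the nearest TSS, and 16 to 17 with a single list; the share difference of −0.324 percentage points ran from −13.0 to 0.638 when a list was left out, with −13.0 for REV-ERBα replicate 2 alone. The BMAL1 count of 4 became 2 within 1 kb, 0 with a −log10 p of at least 3, 0 with the q threshold, 1 with lists of equal length, 2 with the 5′ end of each gene alone, 2 with GENCODE basic transcripts (an alternative chosen after the data were seen), and 17 to 40 with a single list. By construction, stricter thresholds, shorter distances, shorter lists and fewer TSSs can only lower a count. A single list, which needs no overlap, can only raise it. The REV-ERBα count of 0 came from both regions having their nearest TSS in another gene, *Ss18l1* and *Fitm1*. The cause of the changes in the shares was not tested. With 2 replicates per factor, 1 time of day and lists kept at a loose threshold, weak peaks cannot be told from background, and absence from a list does not show absence of the factor.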
